A study of Mus musculus with 4 samples.

Results

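Macrophages that carried transcripts of cell division were examined in omental tumors of mice. The tumors grew from KPCA.A, KPCA.B and KPCA.C, syngeneic lines whose source the labels give as fallopian tube epithelium. The cells were chosen by their transcripts. A barcode needed at least 300 genes, at least 500 UMIs (unique molecular identifiers, which count captured RNA molecules) and at most 15% mitochondrial UMIs. It also needed at least 3 UMIs of the complement genes C1qa, C1qb and C1qc and at least 1 of the receptor genes Csf1r and Adgre1. Limits on Cd3e (0), Cd79a (at most 1) and Cdkn2a (at most 1) kept out T cells, B cells and tumor cells. A macrophage counted as cycling when Mki67 and Top2a together had at least 3 UMIs. There were 185 cycling macrophages, 52 in KPCA.A, 95 in KPCA.B and 38 in KPCA.C. They were found among 1834 tumor macrophages, 8332 tumor barcodes over the cell filter and 11253 such barcodes in all 4 libraries.

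Each tumor library was a pool of 4 tumors from C57BL6J mice aged 8 weeks, and a KPCA ascites library came from mice aged 9 weeks. All the tumor cells in the study come from KPCA lines, which are known to carry mutant p53 and to overexpress Ccne1 and Akt2, among other changes. The labels do not spell out these changes or say how A, B and C differ. No library without tumor is analysed here. Tumors were dissociated with collagenase and DNase before droplet capture. Each group had a single library, so no test between groups was possible. Intervals below are 95% intervals, cover counting error only, and say nothing about mice.

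Macrophages were long seen as cells that stop dividing when they mature, yet resident macrophages of several tissues, the peritoneal cavity among them, renew themselves by local division. Monocyte-derived macrophages can divide too after they enter a tissue. CSF1 acting on its receptor Csf1r drives survival and division, while the transcription factor Maf helps to hold mature mouse macrophages out of the cycle. During division the E2F factors turn on replication genes at the start of S phase. The genes of G2 and mitosis are turned on later by the MuvB complex with B-Myb and Foxm1, often together with NF-Y at CCAAT boxes.

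The promoters of the replication and mitosis genes carried different letters. The 150 bases before the start are printed for the 2 genes of each list with the most UMIs in cycling macrophages among those with a single RefSeq entry (GRCm38.p6). Pcna, the sliding clamp of DNA polymerase, and Rrm1, a subunit of ribonucleotide reductase, stand for S phase. Hmgb2, a chromatin protein, and Jpt1, a microtubule-associated protein, stand for G2 and mitosis. Capitals mark an E2F-type match, CCAAT or TTTGAA on either strand.
Pcna, chr2:132253181-132253330, minus strand: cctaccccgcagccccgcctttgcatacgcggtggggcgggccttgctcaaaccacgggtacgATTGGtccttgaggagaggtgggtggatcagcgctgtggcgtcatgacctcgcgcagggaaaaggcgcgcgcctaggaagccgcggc
Rrm1, chr7:102441545-102441694, plus strand: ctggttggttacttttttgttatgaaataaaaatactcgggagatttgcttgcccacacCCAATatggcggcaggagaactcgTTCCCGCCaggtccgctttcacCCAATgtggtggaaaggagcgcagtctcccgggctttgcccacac
Hmgb2, chr8:57511693-57511842, plus strand: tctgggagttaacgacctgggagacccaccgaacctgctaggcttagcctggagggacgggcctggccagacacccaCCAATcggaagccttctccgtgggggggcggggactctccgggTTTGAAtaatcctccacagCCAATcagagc
Jpt1, chr11:115514394-115514543, minus strand: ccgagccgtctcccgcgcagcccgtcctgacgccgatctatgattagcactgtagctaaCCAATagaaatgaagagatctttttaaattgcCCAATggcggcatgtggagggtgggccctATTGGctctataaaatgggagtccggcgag

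Rrm1 had 1 E2F-type match, 67 bases before its start, and 2 CCAAT boxes. Hmgb2 had 2 CCAAT boxes and a TTTGAA 30 bases before its start. Jpt1 had 3 CCAAT boxes, and Pcna had 1. Across windows of 250 bases before to 50 after each start, the E2F-type letters searched (TTTGGCGC, TTTCCCGC, TTCCCGCC or TTTGGCGG, which overlap one another in part) were in 45.9% of 37 windows of the S-phase list. They were in 5.77% of 52 windows of the G2 and mitosis list and in 3.69% of all 32851 windows. TTTGAA was in 16.2% of S-phase windows, 63.5% of those of G2 and mitosis and 17.9% of all windows. CCAAT was in 70.3%, 75.0% and 37.4% of them. These windows covered 33 of the 45 S-phase genes and 47 of the 54 genes of G2 and mitosis, and a match is a description of letters only.

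The label held against markers the rule did not use. Cd68, a lysosomal protein of macrophages, had 213, 255 and 190 CPM (counts scaled to a common total of UMIs in each group) in cycling macrophages (KPCA.A, KPCA.B, KPCA.C in this order), against 227, 276 and 208 CPM in non-cycling macrophages. Non-cycling macrophages are those of the same tumor with no UMI of Mki67 or Top2a, 441 in KPCA.A, 294 in KPCA.B and 583 in KPCA.C. Lyz2, which encodes lysozyme, had 4743, 3211 and 3298 CPM in cycling cells, against 4351, 5414 and 2724 CPM in non-cycling cells. The groups therefore lay within 2-fold of each other for both genes in every tumor. Ms4a7, a membrane protein of mature macrophages, was lower past 2-fold in KPCA.B and KPCA.C. It had 125, 43.8 and 41.6 CPM in cycling macrophages, against 170, 113 and 132 CPM in non-cycling macrophages.

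Mki67 and Top2a chose the cells, so their levels are a description. Mki67, which encodes the Ki-67 coat protein of mitotic chromosomes, had 357, 613 and 402 CPM in the cycling macrophages in KPCA.A, KPCA.B and KPCA.C. Top2a, the topoisomerase that untangles replicated DNA, had 700, 743 and 591 CPM. Both genes were seen in 162 of the 185 cells, only Mki67 in 11 and only Top2a in 12. The sum of both genes had a median of 19, 18 and 15.5 UMIs per cell in the 3 tumors, with ranges of 3 to 46, 3 to 225 and 3 to 108. Most cells lay well inside the limit, since 141 had 6 or more UMIs, 26 had exactly 3, and 75 macrophages just outside had 2.

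The cells at the limit differed between tumors. With exactly 3 UMIs, the 9 cells of KPCA.A had 2855 CPM over the S-phase list and 3036 CPM over the G2 and mitosis list, against 1466 and 1702 CPM in the 14 cells with 2 UMIs. The 10 cells of KPCA.B with 3 UMIs had 879 and 2131 CPM over these lists, against 998 and 1686 CPM in the 36 cells with 2. The 7 cells of KPCA.C with 3 UMIs had 651 and 1315 CPM, against 511 and 1014 CPM in the 25 cells with 2. Non-cycling macrophages of KPCA.C had 586 and 1044 CPM. The lowest-count members of KPCA.C thus lay close to its non-cycling cells on both lists.

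Cycling macrophages were most frequent in KPCA.B and least frequent in KPCA.C. They made up 19.3% of macrophages in KPCA.B (95 of 491, exact Clopper-Pearson interval 15.9 to 23.1%), 9.17% in KPCA.A (52 of 567, 6.93 to 11.9%) and 4.90% in KPCA.C (38 of 776, 3.49 to 6.66%). The intervals of the 3 tumors did not overlap. Depth bears on this count, because the median non-cycling macrophage had 7064 UMIs in KPCA.A, 12099 in KPCA.B and 11505 in KPCA.C. After thinning each cell to 5000 UMIs the shares were 14.7% (65 of 441), 8.11% (34 of 419) and 2.89% (20 of 692) for KPCA.B, KPCA.A and KPCA.C. Shallower macrophages were left out, so the totals are smaller. At 3000 UMIs the shares were 11.1%, 5.71% and 2.29%, in the same order of tumors.

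**Figure D1:**
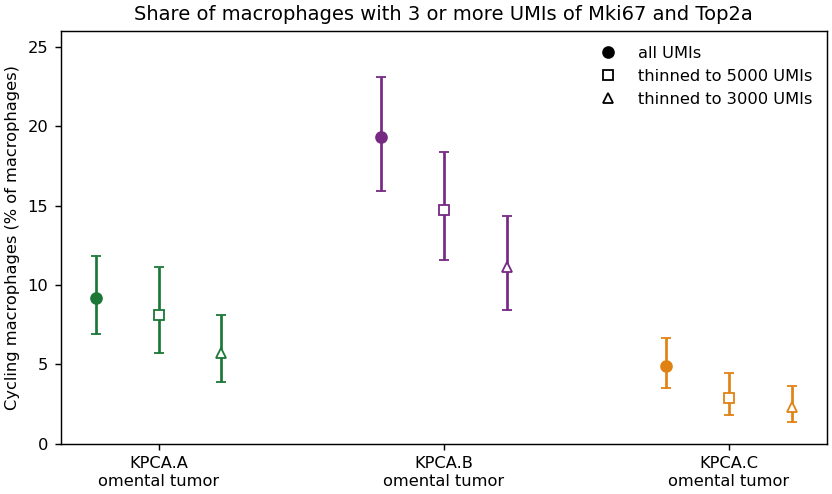
Share of macrophages with 3 or more UMIs of Mki67 and Top2a (y axis, percent of macrophages by the rule) in each tumor library (x axis), with all UMIs and after thinning each cell to 5000 or 3000 UMIs; bars are exact 95% binomial intervals. KPCA.B is highest and KPCA.C lowest at each depth, at 14.7% and 2.89% after thinning to 5000 UMIs.

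The same count was made in other cells of these libraries. Tumor cells were called by at least 3 UMIs of Krt8 and Krt18, at least 2 of Cdkn2a and at most 2 of the C1q genes. They were cycling by Mki67 and Top2a in 53.8% (KPCA.B), 55.3% (KPCA.A) and 42.0% (KPCA.C) of cells. At 5000 UMIs these shares were 27.1%, 25.9% and 21.2%. Lymphocytes had 3 or more UMIs of both genes in 14.1%, 11.6% and 12.3% of barcodes. The intervals of KPCA.A and KPCA.B overlapped in both cell types. Cells lost in dissociation differ by type, and the part this played was not tested.

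No macrophage of the ascites reached the limit (0 of 657, which allows a share of up to 0.560% by the exact interval). A UMI of either gene was seen in 9 of them. The ascites library was shallower, so all were compared after thinning to its median of 3676 UMIs. At that depth 0 of 329 ascites macrophages had 3 UMIs, against 12.0% in KPCA.B, 6.97% in KPCA.A and 2.74% in KPCA.C. A single UMI or more was found in 0.608% of ascites macrophages (2 of 329), against 25.1%, 16.6% and 8.62% in those tumors. The ascites library also differed in the age of the mice and in the software version of its header, which cannot be told apart from the tissue.

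Dividing macrophages held more RNA. The median cycling macrophage had 15732.5, 24143 and 24516 UMIs in KPCA.A, KPCA.B and KPCA.C, against 7064, 12099 and 11505 UMIs in non-cycling macrophages, a ratio of 2.23, 2.00 and 2.13. The rule itself favours cells with many UMIs, and the part of doublets was not tested. Mitochondrial UMIs took a median 6.46%, 4.12% and 6.25% of cycling cells, against 6.59%, 4.35% and 4.58% of non-cycling cells. Levels below are therefore given in CPM.

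Transcripts of other cell types were looked for, because a macrophage captured with a dividing cell would meet the rule. Over a tumor-cell panel of 4 keratin genes, Epcam and Cldn4, cycling macrophages of KPCA.A had 237 CPM, against 105 CPM in its non-cycling macrophages, 4.10% and 1.82% of the level in tumor cells. In KPCA.B the values were 24.1 and 29.5 CPM, and in KPCA.C 86.1 and 93.1 CPM. At least 5 UMIs of that panel were seen in 4 of 52 members of KPCA.A, 1 of 95 of KPCA.B and 6 of 38 of KPCA.C. Among non-cycling macrophages, which had fewer UMIs per cell, they were seen in 4 of 441, 3 of 294 and 11 of 583. By this count a larger share of cycling than of non-cycling cells held the panel in KPCA.A and KPCA.C. Fibroblast transcripts (Col3a1, Col1a2, Lum and Pdgfra) came to 528 CPM in cycling cells of KPCA.C, against 737 CPM in non-cycling cells, and 495 UMIs of these lay in 1 cell. In KPCA.B they came to 124 CPM in cycling cells, against 58.7 CPM in non-cycling cells, with 282 UMIs in 1 cell. In KPCA.A they came to 28.0 CPM, against 36.2 CPM. Lymphocyte transcripts reached at most 0.665% of the level in lymphocytes. The part of cells captured together was not tested.

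The main contrast, cycling against non-cycling macrophages, uses the split that chose the cells. Its values describe the cells and are no test. A gene was measured when both groups of a tumor held at least 30 UMIs in sum, and past 2-fold is judged on log2 ratios of CPM with 5 CPM added. In KPCA.A 5.16% of 8727 genes were higher past 2-fold in cycling cells and 2.13% were lower. For KPCA.B the shares were 5.24% and 1.14% of 9638 genes, and for KPCA.C 3.71% and 1.53% of 10326 genes. Of 8590 genes measured in all 3 tumors, 244 (2.84%) were higher past 2-fold in each of them, and 14 (0.163%) were lower. The median gene differed by 0.03, 0.08 and -0.01 log2 units in KPCA.A, KPCA.B and KPCA.C.

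The replication genes were higher nearly throughout. Of the S-phase list, 40 of 41 measured genes in KPCA.A, 41 of 44 in KPCA.B and 40 of 42 in KPCA.C were higher past 2-fold in cycling cells, with median log2 ratios of 2.27, 2.20 and 2.33. Rrm1 had 258, 233 and 223 CPM in cycling macrophages (KPCA.A, KPCA.B, KPCA.C), against 16.5, 14.1 and 17.4 CPM in non-cycling macrophages. Tyms, which makes thymidylate, had 113, 81.8 and 103 CPM, against 11.7, 10.9 and 14.7 CPM. Mcm5, a subunit of the replicative helicase, had 131, 148 and 96.7 CPM, against 12.6, 14.1 and 10.7 CPM. Pcna, whose promoter is printed above, was already present in non-cycling cells, with 436, 216 and 355 CPM in cycling cells, against 98.2, 70.9 and 81.6 CPM. Summed over the list, cycling macrophages had 4052, 3458 and 3508 CPM, and cycling tumor cells of the same libraries had 2617, 2969 and 2691 CPM.

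Mitotic genes showed the same pattern with larger ratios. Past 2-fold higher were 43 of 46 measured genes of the G2 and mitosis list in KPCA.A, 50 of 52 in KPCA.B and 45 of 49 in KPCA.C, with medians of 3.07, 3.11 and 2.90. Cdk1, the kinase that starts mitosis, had 103, 58.9 and 97.7 CPM in cycling macrophages, against 6.29, 1.49 and 6.21 CPM in non-cycling macrophages. Its cyclin Ccnb1 had 60.8, 94.1 and 61.9 CPM, against 2.10, 0.744 and 2.03 CPM. Cenpf, a kinetochore protein, had 141, 250 and 177 CPM, against 1.80, 2.23 and 1.78 CPM. Hmgb2 was the most abundant of the list, with 976, 947 and 1041 CPM, against 109, 81.1 and 126 CPM. At the low end Jpt1 had 391, 449 and 316 CPM, against 204, 256 and 182 CPM, within 2-fold in every tumor.

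Outside these lists, the genes with the largest ratios in all 3 tumors were also genes of division. Pclaf, a PCNA-binding factor, had 680, 468 and 554 CPM in cycling macrophages, against 4.49, 6.45 and 6.34 CPM in non-cycling macrophages, ratios of 151 (91.0 to 272), 72.6 (49.3 to 112) and 87.4 (65.4 to 119). Prc1, which bundles microtubules of the spindle midzone, had 153, 205 and 136 CPM, against 2.69, 3.22 and 2.41 CPM. The others by the same rule were the kinesin Kif15, the kinetochore genes Knl1, Spc24 and Spc25, the kinase Pbk, the condensin subunit Smc2, the cytokinesis gene Racgap1 and the cohesin acetyltransferase Esco2. Smc2 had ratios of 14.4 (10.5 to 20.1), 14.3 (10.9 to 18.9) and 14.9 (11.7 to 19.3).

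Histone and chromatin genes followed. All 19 measured genes of the list in KPCA.A, all 23 in KPCA.B and 18 of 20 in KPCA.C were higher past 2-fold, with medians of 2.10, 2.14 and 1.84. The histone variant gene H2afz had 1878, 1313 and 1376 CPM in cycling macrophages, against 454, 309 and 383 CPM in non-cycling macrophages. Ezh2, the histone methyltransferase of Polycomb repression, had 165, 154 and 144 CPM, against 22.4, 21.6 and 20.2 CPM. Nucleotide synthesis split in parts: 10 of 22 measured genes in KPCA.A, 7 of 23 in KPCA.B and 6 of 23 in KPCA.C were higher past 2-fold. Tk1, the thymidine kinase, had 80.2, 65.5 and 86.1 CPM, against 0.898, 0.992 and 1.78 CPM. Odc1, which starts polyamine synthesis, had 97.3, 103 and 59.9 CPM, against 85.6, 73.4 and 56.6 CPM.

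**Figure D2:**
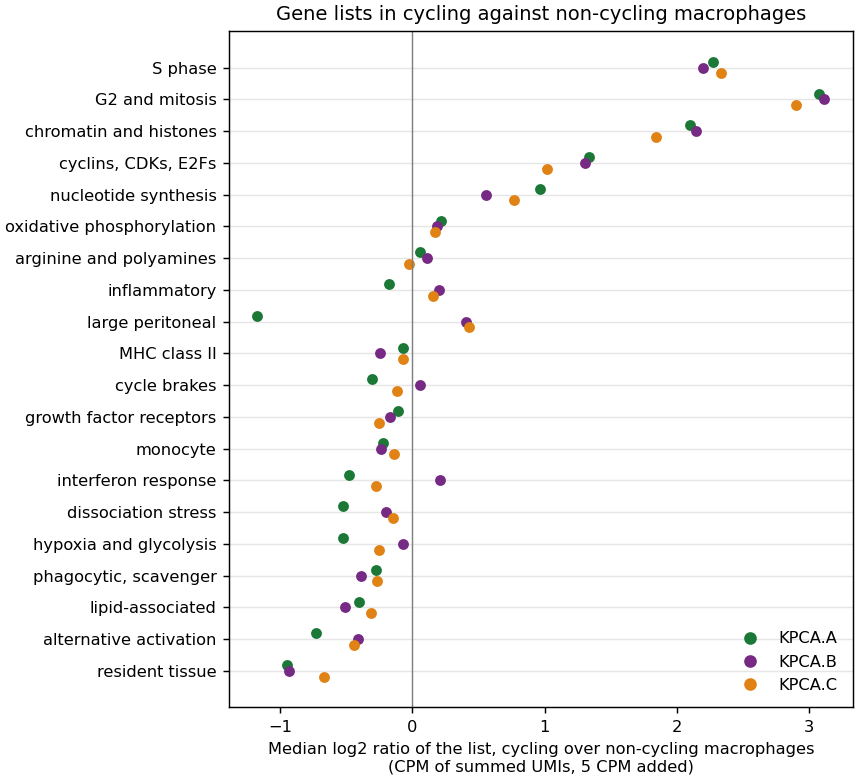
Median log2 ratio of each gene list (rows) in cycling over non-cycling macrophages, with 1 point per tumor library; x axis in log2 units of CPM with 5 CPM added. The division lists lie between 0.56 and 3.11, and the resident tissue list lies between -0.95 and -0.67. The large peritoneal point of KPCA.A rests on 14 of 30 genes.

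Single members were spread over the cycle. After thinning to 5000 UMIs, more S-phase than G2 and mitosis UMIs were held by 17 of 48 members in KPCA.A (35.4%, 22.2 to 50.5%), 29 of 91 in KPCA.B (31.9%, 22.5 to 42.5%) and 9 of 37 in KPCA.C (24.3%, 11.8 to 41.2%). The intervals overlapped throughout, and without thinning the shares were 34.6%, 31.6% and 26.3%. Because the list of G2 and mitosis is longer and Mki67 and Top2a themselves peak late in the cycle, these shares are not shares of time spent in each phase. The median member, thinned to 5000 UMIs, had 21.5, 14 and 14 S-phase UMIs and 30.5, 33 and 24 UMIs of G2 and mitosis. The median non-cycling macrophage had 3, 2 and 3 S-phase UMIs and 5, 6 and 5 UMIs of G2 and mitosis at the same depth.

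**Figure D3:**
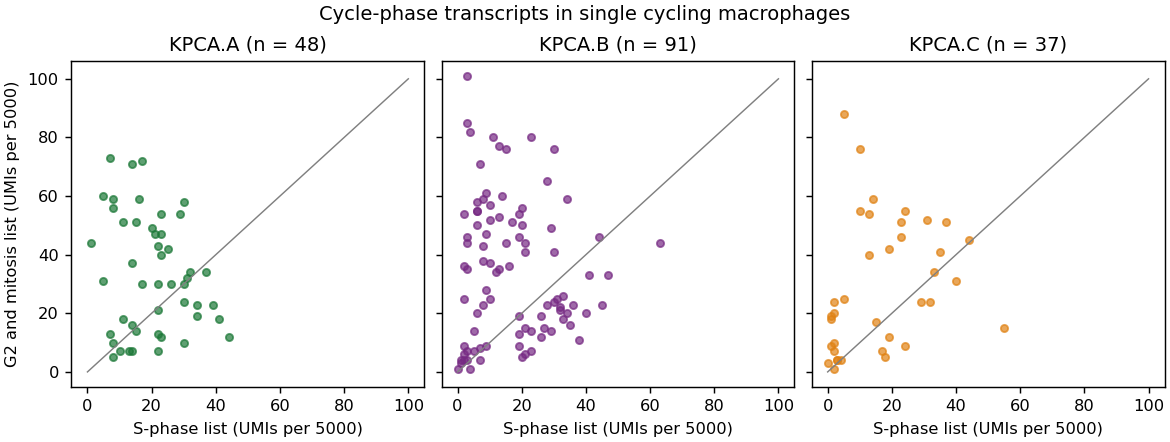
UMIs of the S-phase list (x axis) and of the G2 and mitosis list (y axis) in each cycling macrophage after thinning to 5000 UMIs, with 1 panel per tumor library and the line of equal counts. Of the 48, 91 and 37 members deep enough to thin, 17, 29 and 9 lie below the line, where S-phase UMIs are more numerous.

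Among the cyclins, kinases and E2F factors, the genes of the S and G2 phases were higher while those of entry from rest varied. Past 2-fold higher were 10 of 17 measured genes in KPCA.A, 12 of 19 in KPCA.B and 9 of 17 in KPCA.C. Ccna2, the cyclin of S and G2, had 153, 144 and 131 CPM in cycling macrophages, against 2.10, 1.24 and 2.28 CPM in non-cycling macrophages. Ccne1, the cyclin of the G1 to S step, had log2 ratios of 3.33, 1.59 and 2.51. Ccne1 is also a gene that KPCA cells are known to overexpress. In tumor cells here it had 9.80, 19.9 and 5.93 CPM, while cycling macrophages had 57.1, 15.95 and 32.9 CPM. They were above the tumor cells in KPCA.A and KPCA.C and below them in KPCA.B. The part of tumor-cell RNA was not tested. Foxm1, a factor that turns on mitotic genes, had 35.3, 49.1 and 48.3 CPM, against 0.299, 0.744 and 0.888 CPM.

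The D-type cyclins, which couple growth factors to the cycle, did not move as a group. Ccnd1 had 239, 191 and 164 CPM in cycling macrophages, against 217, 126 and 89.4 CPM in non-cycling macrophages. Ccnd2 was lower in all 3, with 176, 46.2 and 150 CPM, against 258, 101 and 197 CPM. Ccnd3 had 101, 164 and 102 CPM, against 49.4, 85.3 and 76.7 CPM. Myc had 32.8, 11.0 and 33.8 CPM, against 28.1, 10.2 and 43.0 CPM, and its counting intervals included a ratio of 1 in every tumor.

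Genes known to slow the cycle fell into opposite groups. Higher past 2-fold in each tumor were the same 3 of 19 to 21 measured genes of the list: Cdkn2c and Cdkn2d, inhibitors of Cdk4 and Cdk6, and the pocket protein gene Rbl1. Cdkn2c had log2 ratios of 3.29, 2.57 and 2.48. Cdkn2d had 62.0, 61.0 and 81.2 CPM in cycling macrophages, against 14.1, 19.1 and 27.1 CPM in non-cycling macrophages. Rbl1 had 63.2, 46.6 and 72.5 CPM, against 14.7, 9.92 and 14.0 CPM. The p53 target Cdkn1a had 445, 237 and 480 CPM, against 539, 207 and 516 CPM. Btg1, an antiproliferative gene of resting cells, had 847, 398 and 756 CPM, against 1414, 461 and 1182 CPM. Genes of the list that were lower past 2-fold included Maf in all 3 tumors and Tob1 in KPCA.B and KPCA.C.

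Maf was lower past 2-fold in each tumor. Maf had 192, 180 and 327 CPM in cycling macrophages in KPCA.A, KPCA.B and KPCA.C, against 531, 459 and 855 CPM in non-cycling macrophages. Its ratios were 0.362 (0.305 to 0.426), 0.393 (0.354 to 0.437) and 0.382 (0.342 to 0.427). The intervals of the 3 tumors overlapped. Cycling macrophages were not without the transcript. Per 10000 UMIs, the median member had 0.726, 0.848 and 2.31 UMIs of Maf, against 2.15, 2.73 and 5.15 in the median non-cycling macrophage. A UMI of Maf was found in 30 of 52 members in KPCA.A, 68 of 95 in KPCA.B and 31 of 38 in KPCA.C.

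The scavenger receptor gene Cd163, a marker of resident-type macrophages, was nearly missing. It had 6.08, 7.77 and 0.967 CPM in cycling macrophages, against 55.7, 56.8 and 128 CPM in non-cycling macrophages. Only 3, 8 and 1 members held a UMI. The ratios were 0.109 (0.0350 to 0.259), 0.137 (0.0809 to 0.219) and, from 1 UMI, 0.00753 (1.9e-04 to 0.0420). Counted by cell at 5000 UMIs, Cd163 was found in 2.08% of cycling cells in KPCA.A, 3.30% in KPCA.B and 0 of 37 in KPCA.C, which allows up to 9.49% by the exact interval. The shares of non-cycling cells were 3.17%, 8.20% and 9.90%, and of lymphocytes, which lack the gene, 0 of 34, 0.404% and 0 of 133. By this count the intervals of cycling and non-cycling cells overlapped in each tumor. The 5 highest non-cycling cells held 74.7%, 60.7% and 27.5% of the Cd163 UMIs of that group in KPCA.A, KPCA.B and KPCA.C.

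Other genes of the resident tissue list leaned the same way, with exceptions in KPCA.C. Lower past 2-fold were 8 of 19 measured genes in KPCA.A, 10 of 20 in KPCA.B and 6 of 19 in KPCA.C, and 0, 0 and 2 were higher. The medians were -0.95, -0.94 and -0.67. F13a1, a transglutaminase of the clotting system, had 38.9, 29.0 and 334 CPM in cycling cells, against 204, 217 and 556 CPM in non-cycling cells. The mannose receptor gene Mrc1 had 497, 512 and 695 CPM, against 823, 806 and 1397 CPM. Pf4, a platelet-type chemokine of resident macrophages, had 123, 149 and 427 CPM, against 463, 275 and 833 CPM. The hyaluronan receptor gene Lyve1 had 0 UMIs in members of KPCA.A. Its level in non-cycling cells (21.6 CPM) was 5.91-fold over the limit of 3 UMIs (3.65 CPM), but 5 cells held 56.9% of those UMIs. Counted by cell at 5000 UMIs, it was found in 0 of 48 members of KPCA.A, which allows up to 7.40%, against 3.49% of non-cycling cells. In KPCA.B it had 43.0 CPM in cycling cells, against 225 CPM in non-cycling cells. In KPCA.C it had 34.8 CPM, against 8.62 CPM, but 32 of those 36 UMIs lay in 1 member.

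Some monocyte genes, which mark the newest arrivals from blood, were lower past 2-fold. Of the monocyte list 4, 3 and 3 of 20 measured genes were, and none was higher, with medians of -0.22, -0.23 and -0.14. Ly6c2 had 0, 4.09 and 7.74 CPM in cycling macrophages, against 20.1, 32.7 and 55.9 CPM in non-cycling macrophages. In KPCA.A the level in non-cycling cells was 5.50-fold over the limit of 3 UMIs, but 5 of those cells held 49.3% of the UMIs. Counted by cell at 5000 UMIs, Ly6c2 was found in 0 of 48 members of KPCA.A, which allows up to 7.40%. The shares of members were 3.30% in KPCA.B and 5.41% in KPCA.C. By this count the intervals of cycling and non-cycling cells overlapped in each tumor. With a cycling limit of 2 UMIs the direction of Ly6c2 turned in KPCA.C, where its log2 ratio was 0.23. Lymphocytes held Ly6c2 in 55.9%, 55.2% and 36.1% of barcodes at 5000 UMIs, against 5.40%, 7.81% and 12.1% of non-cycling macrophages. The part of free RNA was not tested. Plac8 had 32.8, 36.0 and 70.6 CPM, against 172, 118 and 261 CPM. Ccr2, the receptor that brings monocytes into tissue, was retained, with 512, 527 and 474 CPM, against 706, 806 and 679 CPM.

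Hmox1, the heme-degrading oxygenase, was among the 14 genes lower in all tumors, with 117, 212 and 131 CPM in cycling cells, against 429, 767 and 330 CPM in non-cycling cells. The others named by the same rule were Cd163, Maf, Ly6c2, Plac8, the collagenase Mmp13, the histone demethylase Kdm5b, the chemokine Ccl8, Slfn5 and Ms4a4c. Mmp13 had 38.9, 9.00 and 18.4 CPM, against 159, 35.0 and 194 CPM. Ccl8 had 86.3, 339 and 55.1 CPM, against 299.9, 799.7 and 153 CPM.

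**Figure D4:**
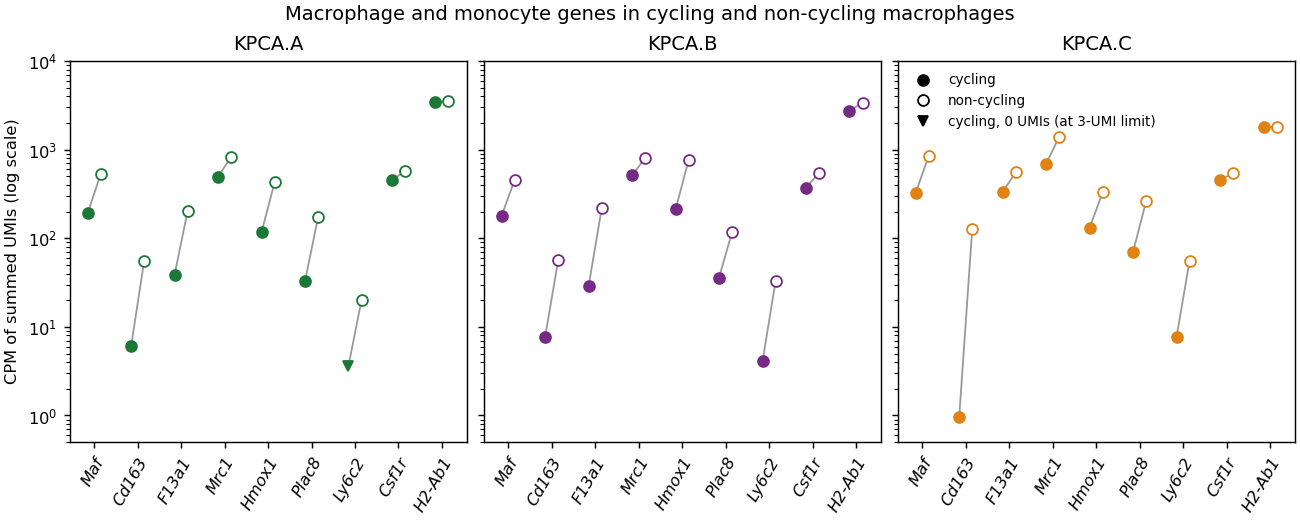
CPM (log scale) of macrophage and monocyte genes in cycling (filled, left) and non-cycling (open, right) macrophages of each tumor library; a triangle marks 0 UMIs, drawn at the limit of 3 UMIs. Maf has 192, 180 and 327 CPM in cycling cells, against 531, 459 and 855 CPM in non-cycling cells, while H2-Ab1 differs little.

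Growth factor receptors differed less than the genes above. Csf1r, which the rule used in part, had 450, 374 and 458 CPM in cycling macrophages, against 578, 547 and 540 CPM in non-cycling macrophages. Csf2rb, the shared chain of the GM-CSF receptor, had log2 ratios of 0.20, 0.49 and -0.23. Il4ra, a receptor chain for IL-4 and IL-13, had 158, 97.8 and 267 CPM, against 238, 145 and 360 CPM. The fractalkine receptor gene Cx3cr1 had 266, 146 and 113 CPM, against 184, 131 and 51.4 CPM. Of 18 measured genes in this list, none in KPCA.A and KPCA.B and 1 in KPCA.C was higher past 2-fold, and 1, 0 and 0 were lower.

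Antigen presentation was kept. None of the 8, 8 and 9 measured MHC class II genes differed past 2-fold in KPCA.A, KPCA.B or KPCA.C. H2-Ab1, a chain of the class II molecule, had 3428, 2754 and 1793 CPM in cycling macrophages, against 3528, 3396 and 1818 CPM in non-cycling macrophages. Of 37 oxidative phosphorylation genes, 1, 0 and 0 were higher past 2-fold, with medians of 0.21, 0.19 and 0.17. The lipid-associated list, with genes of lysosomes and lipid uptake, had 0, 0 and 1 of 23 higher past 2-fold and 4, 4 and 1 lower. Apoe, a lipid carrier, had 4692, 1627 and 2908 CPM, against 5964, 4218 and 4586 CPM. The phagocytic list had 1, 4 and 2 of 27 genes lower past 2-fold and 0, 0 and 1 higher, and the arginine and polyamine list had medians of 0.06, 0.11 and -0.02.

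Genes of alternative activation lay mostly below 0 on the log2 scale, 20 of 23, 19 of 25 and 21 of 24 of those measured, and few differed past 2-fold. The list had 1, 2 and 0 genes higher past 2-fold and 5, 6 and 5 lower, with medians of -0.73, -0.41 and -0.44. Arg1, the arginase that makes ornithine, had 2628, 4016 and 6506 CPM in cycling macrophages, against 5172, 5130 and 8078 CPM in non-cycling macrophages. It was found in 89.6%, 91.2% and 97.3% of members at 5000 UMIs and in 2.94%, 7.07% and 24.1% of lymphocytes. Chil3, a chitinase-like secreted protein, had 1905, 14991 and 18215 CPM, against 4267, 12406 and 13089 CPM. Retnla, a secreted protein induced by IL-4, had 6793 CPM in cycling cells of KPCA.B, against 12441 CPM in non-cycling cells. In KPCA.A, 548 of its 652 UMIs lay in 1 member, and in KPCA.C 213 of 250 did, so its levels there are those of a single cell. Retnla and Arg1 were both present at 10 or more UMIs per 10000 in 57.9% of members of KPCA.B, against 50.7% of its non-cycling macrophages.

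Hypoxia genes were lower in KPCA.A. Of its 30 measured genes 8 were lower past 2-fold and none was higher, with a median of -0.52. For KPCA.B and KPCA.C 1 of 30 and 1 of 31 were lower, with medians of -0.07 and -0.25. Vegfa, the growth factor of blood vessels, had 92.4, 12.3 and 201 CPM in cycling cells, against 254, 18.3 and 289 CPM in non-cycling cells. At 5000 UMIs it was found in 27.1%, 3.30% and 48.6% of members and in 52.7%, 6.25% and 57.2% of non-cycling cells. Lymphocytes held it in 20.6%, 12.1% and 24.1% of barcodes, and the part of free RNA was not tested. Ndrg1, a hypoxia-induced gene, had 51.1, 10.6 and 102 CPM, against 113, 28.8 and 209 CPM. Genes of the dissociation stress list were lower past 2-fold for 4, 0 and 4 of 19 genes, and none was higher.

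Interferon response genes went opposite ways in KPCA.B and the other tumors. In KPCA.B 8 of 31 measured genes were higher past 2-fold in cycling cells and none was lower. In KPCA.A 7 of 29 were lower and none higher, and in KPCA.C 6 of 31 were lower and 1 was higher. Isg15, a ubiquitin-like protein, had 31.6, 69.1 and 26.1 CPM in cycling macrophages in KPCA.A, KPCA.B and KPCA.C, against 69.1, 28.5 and 65.6 CPM in non-cycling macrophages. Rsad2, an antiviral enzyme, had 17.0, 97.4 and 10.6 CPM, against 40.4, 17.6 and 52.9 CPM. In KPCA.B its 238 UMIs lay in 8 members, 104 of them in 1 cell. Isg15 was spread over 27 members there, 62 of 169 UMIs in 1 cell. Without any macrophage that held a UMI of another cell type, which leaves 58 members of KPCA.B, the log2 ratio of Isg15 was -0.58 and that of Rsad2 -0.55. The inflammatory list had 0, 1 and 2 genes higher past 2-fold and 3, 0 and 3 lower, of 27, 24 and 26.

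The 30 genes of large peritoneal macrophages, the resident phagocytes of the abdominal cavity, were taken next. In KPCA.B 8 of 27 measured genes were higher past 2-fold in cycling cells and none was lower, and in KPCA.C 5 of 28 were higher and none lower. The medians of KPCA.B and KPCA.C were 0.40 and 0.43. For KPCA.A only 14 of the 30 genes reached the 30 UMIs asked of a measured gene, 3 of them with 0 UMIs in cycling cells, so no count is read there. Alox15, a lipoxygenase of these cells, had 545 CPM in cycling macrophages of KPCA.B, against 195 CPM in non-cycling ones, and 275 CPM in KPCA.C, against 155 CPM. Prg4, which encodes lubricin, had 389 CPM in KPCA.B, against 161 CPM, and 102 CPM in KPCA.C, against 55.7 CPM. Gata6, the transcription factor that defines these cells, had 61.0 CPM in KPCA.B, against 26.3 CPM, and 23.2 CPM in KPCA.C, against 26.1 CPM. The protease inhibitor gene Serpinb2 had 349 CPM in KPCA.B, against 122 CPM, and 293 CPM in KPCA.C, against 142 CPM.

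In KPCA.C few cells carried these values, with 143 of 284 UMIs of Alox15 and 142 of 303 of Serpinb2 in 1 member each. KPCA.B had them spread more widely, with Alox15 in 39 of 95 members and Serpinb2 in 33. For KPCA.A, Cd5l, Prg4 and Padi4 had 0 UMIs in its members, and Alox15 had 3 UMIs in 2 members. Cd5l, a secreted scavenger protein, had 14.1 CPM in non-cycling cells of KPCA.A, at least 3.86-fold over that limit. At 5000 UMIs Alox15 was found in 34.1% of cycling cells of KPCA.B, against 17.2% of non-cycling cells and 1.01% of lymphocytes. For Gata6 these shares were 19.8%, 8.20% and 0.202%.

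**Figure D5:**
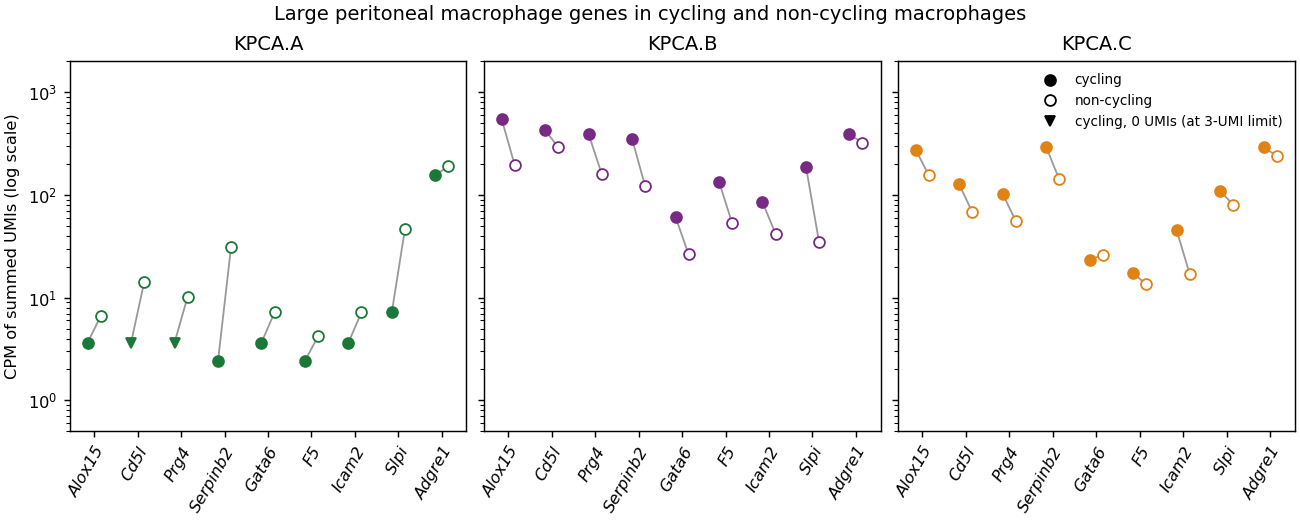
CPM (log scale) of large peritoneal macrophage genes in cycling (filled, left) and non-cycling (open, right) macrophages of each tumor library; a triangle marks 0 UMIs, drawn at the limit of 3 UMIs. Alox15 has 545 CPM in cycling cells of KPCA.B, against 195 CPM in its non-cycling cells, and lies at 3.65 CPM in cycling cells of KPCA.A.

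A cell-wise count used 10 genes (Alox15, Cd5l, Prg4, Serpinb2, Selp, F5, Garnl3, Icam2, Gata6 and Timd4), chosen after their values were seen. At least 3 UMIs of them, after thinning to 5000, were held by 31 of 91 members of KPCA.B (34.1%, 24.5 to 44.7%), against 55 of 256 non-cycling cells (21.5%, 16.6 to 27.0%). In KPCA.C they were held by 8 of 37 members (21.6%, 9.83 to 38.2%), against 47 of 505 non-cycling cells (9.31%, 6.92 to 12.2%). In KPCA.A they were held by 0 of 48 members, which allows up to 7.40% by the exact interval, against 13 of 315 non-cycling cells (4.13%, 2.22 to 6.95%). The intervals of cycling and non-cycling cells overlapped in each tumor. Of the members with these genes, 30 of 31 in KPCA.B also had Retnla at 10 or more UMIs per 10000, and 1 of 8 in KPCA.C did. Among all 95 members of KPCA.B, 55 reached that level for both Retnla and Arg1 and 6 for Retnla only. For all 38 members of KPCA.C these counts were 1 and 0. Read the other way, 26.7% of the large peritoneal type macrophages cycled in KPCA.B (31 of 116), against 18.5% of the rest (60 of 325). The counts for KPCA.C were 8 of 77 (10.4%), against 29 of 615 (4.72%), and for KPCA.A 0 of 13, against 48 of 406 (11.8%). These intervals too overlapped in each tumor. Both readings use the same cells, and the genes were chosen with their values in these cells known. Neither is therefore a test, and the second adds no support to the first.

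The cycling macrophages of the 3 tumors were then set against each other. These comparisons share libraries, since each tumor enters 2 of them. In KPCA.B over KPCA.A, 4.64% of 8463 measured genes were higher past 2-fold and 3.59% lower. For KPCA.B over KPCA.C, 3.05% of 8568 were higher and 3.69% lower, and for KPCA.C over KPCA.A, 3.35% of 6964 were higher and 2.24% lower. Of the S-phase list 0, 0 and 0 genes were higher and 1 of 44, 0 of 44 and 0 of 42 lower in these comparisons. For G2 and mitosis 2 of 52, 4 of 52 and 0 of 50 were higher and none lower. The median log2 ratios were -0.10, 0.06 and -0.17 for S phase and 0.17, 0.28 and -0.09 for G2 and mitosis.

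Several large peritoneal genes had few or no UMIs in cycling macrophages of KPCA.A. Of the 30 genes, 26 were measured in KPCA.B over KPCA.A, 7 of them with 0 UMIs in KPCA.A, and 18 in KPCA.C over KPCA.A, 5 of them with 0. Such genes enter only through the tumor where they are high, so no count is read from these pairs. For KPCA.B over KPCA.C, where no measured gene was at 0, 10 of 28 were higher past 2-fold and 2 lower, with a median of 0.72. In the non-cycling macrophages of this pair 9 of 29 were higher, with a median of 0.38. Cd5l had 426 CPM in members of KPCA.B, at least 117-fold over the limit in KPCA.A, where it had 0 UMIs, and 127 CPM in KPCA.C. The complement gene C4b had 296 CPM in members of KPCA.B and 223 CPM in members of KPCA.C, against 4.86 CPM for KPCA.A. The clotting factor gene F5 had 134 CPM in KPCA.B, against 17.4 CPM in KPCA.C and 2.43 CPM in KPCA.A.

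Cycling macrophages of KPCA.B also held more Tppp3, a microtubule-binding gene, with 306 CPM, against 31.9 CPM in KPCA.C and 30.4 CPM in KPCA.A. Pglyrp1, a peptidoglycan-binding protein, had 67.5 CPM, against 5.80 and 2.43 CPM. Over the settings run, the log2 ratio of cycling over non-cycling cells in KPCA.B lay between -0.40 and 0.17 for Tppp3. For Pglyrp1 it lay between 0.88 and 1.61. Tppp3 was thus not particular to the cycling cells of KPCA.B. Retnla had 6793 CPM, against 242 CPM in KPCA.C and 793 CPM in KPCA.A, where 213 of 250 and 548 of 652 UMIs lay in 1 member each. It was not particular to the cycling cells. At 5000 UMIs Retnla was found in 79.7% of non-cycling macrophages of KPCA.B, 17.8% in KPCA.C and 18.7% in KPCA.A. Lower in KPCA.B were inflammatory genes, 13 of 24 measured past 2-fold against KPCA.A and 14 of 25 against KPCA.C, with medians of -1.27 and -1.28. Non-cycling macrophages showed the same direction, with 19 of 27 and 14 of 26 lower and medians of -1.61 and -1.70. The cytokine gene Osm had 33.1 CPM in KPCA.B, against 306 CPM in KPCA.A. Rgs1, a regulator of G protein signalling, had 101 CPM, against 610 CPM in KPCA.C and 779 CPM in KPCA.A. Il1b had 61.4 CPM, against 362 CPM in KPCA.C and 689 CPM in KPCA.A. Fos, an early gene that dissociation itself can induce, had 88.4 CPM, against 833 and 518 CPM. Of the dissociation stress list 9 of 18 genes were lower past 2-fold when KPCA.B was set against KPCA.A, and 9 of 19 against KPCA.C. In non-cycling cells 11 of 19 and 13 of 19 were. The part of handling in these differences was not tested.

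In the cycling macrophages of KPCA.C hypoxia genes were higher than in KPCA.A for 7 of 29 past 2-fold, and none was lower. In non-cycling macrophages 1 of 31 was higher past 2-fold, with 27 of 31 above 0. Car4, a membrane carbonic anhydrase, had 224 CPM in KPCA.C, against 7.36 CPM for KPCA.B and 20.7 CPM for KPCA.A. F13a1 had 334 CPM, against 29.0 and 38.9 CPM. Class II genes were lower than in KPCA.A for all 8 measured, 2 of them past 2-fold, with a median of -0.92, and their activator Ciita had 44.5 CPM, against 111 CPM in KPCA.A. Non-cycling macrophages showed the same, with 8 of 9 class II genes lower, 3 of them past 2-fold, and a median of -0.88. The integrin gene Itgax had 42.5 CPM, against 184 CPM in KPCA.A. Fabp4 had 145 CPM, against 11.5 and 2.43 CPM, but 71 of its 150 UMIs lay in 1 member. The B cell chemokine gene Cxcl13 had 187 CPM, of which 191 of 193 UMIs lay in 1 member.

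The 4 genes named for the largest ratio of KPCA.A over the other tumors were Tff1, Gkn1, Gkn2 and Pgc, secretory genes of gastric epithelium. They were chosen by ratio, and other genes had higher levels in these cells. Tumor cells of KPCA.A had 46.4 CPM of Tff1. Cycling macrophages of that tumor had 760 CPM, against 1.23 CPM in KPCA.B and 0 UMIs in KPCA.C. Of the 1032 UMIs of these 4 genes, 810 lay in 1 member, and 19 of 52 members had any. Without macrophages that held 5 or more UMIs of other cell types, the log2 ratio of Tff1 in cycling over non-cycling cells of KPCA.A was -0.70.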

How the data were processed

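Droplet single-cell RNA libraries of 3 omental tumor pools and 1 ascites were analysed. The authors deposited raw UMI count matrices of called cells. Per the file headers they were made with Cell Ranger 4.0.0 (tumors) and 3.0.2 (ascites), while the submitters' processing notes name Cell Ranger 3.1.0 and mm10. Totals were 58591493, 40054369 and 95130645 UMIs in 5703, 3358 and 4110 barcodes in KPCA.A, KPCA.B and KPCA.C, and 7420674 in 3118 of the ascites, where the labels state 5000 cells. The labels name the 3' v2 kit. Libraries shared at most 19 barcodes and no member barcode recurred elsewhere.

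Counts were summed per library and cell group and scaled to CPM with pandas 2.3.3, scipy 1.17.1 and numpy 2.4.6 under Python 3.11.15. Log2 ratios used 5 CPM added and genes with 30 UMIs in the 2 sums together. Ratio intervals are exact conditional, and those of shares Clopper-Pearson. With 1 library per group no p-value was computed. The steps were tested on simulated data. Scrublet, run per library in scanpy 1.11.5, marked 15 of 8332 barcodes (0.180%), too few to count as working, so doublets were not removed. No member was marked. The members, gene lists and the rule for named genes (the 10 genes per direction with the largest ratios in all tumors, and the 4 per direction and tumor between tumors) were chosen with earlier results of these data known. Mx1 and Mx2 of the interferon list and Ly6a2 are not used here. Sequences are RefSeq's. Alternatives changed the cycling limit, cell filters, added CPM, gene filter, thinning and doublet handling. Results for some genes are not reported here.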

Additional observations from a re-analysis of the deposited data

Results flagged for a closer look

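Only genes of the fixed lists, the markers and the named genes were screened here, so the count has no share over all measured genes. In 12 of them the cycling to non-cycling difference lay past 2-fold in opposite directions in at least 2 tumors. The counting interval also had to exclude a ratio of 1 in these tumors. The difference between tumors was not tested, since each tumor had 1 library. Higher in KPCA.B and lower in KPCA.A and KPCA.C were Rsad2, with log2 ratios 4.07 apart between the extreme tumors, and Isg15 (2.33). Ifit2 (2.89), Ifit3 (2.98), Usp18 (2.80) and Oasl1 (2.52) were higher in KPCA.B and lower in another tumor. The UMIs of Oasl1 in KPCA.B lay in 14 members, 36 of 70 in 1 cell, and those of Ifit3 in 6 members, 29 of 49 in 1 cell.

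Among peritoneal genes, Slpi (4.33) and Prg4 (2.85) were higher in KPCA.B and lower in KPCA.A, and Serpinb2 (3.77) was higher in KPCA.B and KPCA.C and lower in KPCA.A. Prg4 lay in 32 members of KPCA.B, the highest with 11.0% of its UMIs. Fabp4 (2.84), Lyve1 (3.96) and Marco (3.44) were higher in KPCA.C and lower in KPCA.A and KPCA.B. Lyve1, Marco and Prg4 had 0 UMIs in cycling macrophages of KPCA.A, so their values depend on the 5 CPM added and are no limits. All 63 UMIs of Marco in KPCA.C lay in 1 member.

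In the ascites, outside the comparisons of the tumors, 9 of 657 macrophages held a UMI of Mki67 or Top2a, and none held 3.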

How the results depend on the processing

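The shares of cycling macrophages moved with the limit and the depth, and KPCA.B stayed above KPCA.A and KPCA.A above KPCA.C in each setting run. A limit of 2 UMIs gave 26.7% in KPCA.B and 8.12% in KPCA.C, and a limit of 5 gave 6.70% in KPCA.A. Without any macrophage holding a UMI of another cell type the shares were 6.83% in KPCA.A and 2.39% in KPCA.C, with 20, 58 and 7 members left in KPCA.A, KPCA.B and KPCA.C. Thinning gave 14.7% (KPCA.B) and 2.89% (KPCA.C) at 5000 UMIs, and 5.71%, 11.1% and 2.29% (KPCA.A, KPCA.B, KPCA.C) at 3000.

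Genes lower in all 3 tumors numbered 5 with a limit of 2 UMIs, 26 with 1 CPM added and 6 with 20 CPM added, against 14. Genes higher in all 3 numbered 90 without other-type UMIs, 100 with a filter of 100 UMIs and 84 after thinning, against 244. Between tumors, no other-type UMI gave 856 genes higher in KPCA.B over KPCA.C and 289 lower in KPCA.C over KPCA.A, and 1 CPM added gave 442 for the first of these. With 20 CPM added the higher and lower genes were 173 and 158 (KPCA.B over KPCA.A), 79 and 149 (KPCA.B over KPCA.C) and 133 and 63 (KPCA.C over KPCA.A). A filter of 10 UMIs gave 401 and 299 in KPCA.C over KPCA.A. A filter of 100 UMIs gave 209 and 155, 132 and 172, and 91 and 56 in these comparisons, and thinning gave 239 and 186, 198 lower, and 98 and 90. Fewer genes or cells enter in the filtered and thinned settings, and the cause of the other shifts was not tested. The phase shares stayed within their intervals in all 9 alternatives.

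Signs turned for genes held by few cells. In KPCA.C, Ly6c2 was 0.23 with a limit of 2 UMIs, and Cxcl13 was -0.83 with a limit of 5, -0.94 without the top 5% of Scrublet scores and -0.10 without other-type UMIs. In KPCA.A, with 10 C1q UMIs, Tff1 was -0.78, Gkn1 -0.62, Pgc -0.62 and Gkn2 -0.14. Without other-type UMIs, Tff1 was -0.78, Gkn1 -0.38 and Pgc -1.54 in KPCA.A. In the same setting Ifit2 was -0.30, Ifit3 -0.075, Isg15 -0.58, Oasl1 -0.31 and Rsad2 -0.55 in KPCA.B. For KPCA.C it gave Cdc25a -0.33, Cx3cr1 -0.25, Ifit3 0.10, Lyve1 -1.23 and Marco -0.99, and Cxcl13 was 0.20 in KPCA.B over KPCA.C and 0 in KPCA.C over KPCA.A. Leaving out macrophages with 5 or more other-type UMIs, an alternative chosen after seeing the data, gave Tff1 -0.70, Gkn1 -0.70, Pgc -0.88 and Gkn2 -0.17 in KPCA.A, and Lyve1 -0.60 and Marco -2.44 in KPCA.C. The cause was not tested. No paired analysis was possible because each group has 1 library. Precision is limited by 38 members in KPCA.C and by the shallower macrophages of KPCA.A.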
